A study of Homo sapiens with 24 samples.

Results

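Messenger RNA left in RBMS3 cells after 360 min of actinomycin D was set against that left in LacZ cells at the same time, over all genes of the deposited expression table. Both lines derive from HMLE, human mammary epithelial cells that were immortalized in culture. The RBMS3 cells overexpress RBMS3, and the LacZ cells carry a bacterial enzyme gene in its place as the control. Each line gave 3 libraries at this time, so the comparison rests on 6 of the 24 libraries of the series, chosen by line and time from the sample titles and treatment labels. All 6 had 10 µg/mL actinomycin D for 6 h, and the culture medium of both lines held serum, epidermal growth factor, hydrocortisone and insulin. The 3 RBMS3 and 3 LacZ libraries taken at 0 min are used to show which differences were there before the drug. The labels used here do not give the promoter of either construct, whether a line is 1 clone or a pool, or whether replicate libraries came from separate cultures. The p-values thus measure only how far these libraries scatter, and that scatter may be technical.

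RBMS3 is a protein with RNA recognition motifs that binds AU-rich stretches, often in the 3' untranslated region, and it is known for keeping some messages from being degraded. Actinomycin D intercalates into DNA and stops RNA polymerases, so that the RNA found afterwards is what was made before and has not yet decayed. The series title names PRRX1, a homeobox factor of mesenchymal cells and a driver of the epithelial-mesenchymal transition, as a message whose stability RBMS3 regulates. In that transition epithelial cells lose junctions and keratins and gain matrix proteins and motility.

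Values are normalized counts as the authors deposited them, from sequencing of the 3' ends of polyadenylated RNA. Differences, RBMS3 minus LacZ, were taken after log2 of each normalized count with 1 added, which understates changes of low genes. A gene was called higher or lower at an adjusted p under 0.05 in limma, fitted over all 12096 genes with a mean of at least 10. Values are relative to the other messages of a library, though not scaled to a fixed sum, and say nothing of RNA amounts per cell. A larger value after transcription stopped can thus mean slower loss than that of other messages. Fewer cells that express a gene and less RNA per cell cannot be told apart.

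The 6 libraries were alike in size and the lines stood well apart. Normalized counts summed to 7875078 to 8080428 in RBMS3 libraries and 7638907 to 7741042 in LacZ libraries, and 14346 to 14676 against 14434 to 14678 genes were above 0. Correlations across genes of the log2 values were 0.950 to 0.954 among RBMS3 libraries, 0.944 to 0.950 among LacZ libraries and 0.831 to 0.842 between the lines. Mitochondrially encoded genes took 5.48% to 5.63% of RBMS3 libraries and 6.96% to 7.85% of LacZ libraries, and the part of that in other results was not tested. At 0 min the lowest correlation between 2 LacZ libraries was 0.909. LacZ replicate 2 had the largest sum of normalized counts there, 7057240 against 6638187 and 6641927. Within the RBMS3 line the 0 min libraries stood apart from the later ones: 1756 genes (14.5%) were called between 90 and 0 min, 165 (1.36%) between 180 and 90 min and 334 (2.76%) between 360 and 180 min. In LacZ cells the same steps gave 747 (6.18%), 62 (0.513%) and 149 (1.23%).

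The RBMS3 transcript itself had normalized counts of 197, 236 and 201 in the RBMS3 libraries, against 73.3, 77.8 and 165 in the LacZ libraries. All RBMS3 libraries lay above all LacZ libraries, but the third LacZ library came close to the lowest of them. The log2 difference was 1.09 ± 0.39 (SE), with a limma adjusted p of 0.035. It passed the threshold by little: leaving out 1 library gave adjusted p values of 0.00979 to 0.139, and only the fit without LacZ replicate 3 stayed under 0.05. In the transcript files of the RBMS3 libraries, 286, 205.3 and 259 estimated reads went to RBMS3-205, a protein-coding transcript, and at most 28.75 to any other. The labels do not say whether the introduced copy carries the natural 3' end that these tags read. RBMS1, a paralog that also binds RNA, had values of 1716, 1043 and 1353 in RBMS3 libraries and 785, 792 and 850.4 in LacZ libraries (log2 difference 0.73, limma adjusted p 0.016), a call lost without RBMS3 replicate 1 (adjusted p 0.0966) and under ribosomal protein scaling (0.0557). RBMS2 differed by −0.15, with a limma adjusted p of 0.52.

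PRRX1 had normalized counts of 600.2, 521 and 503 in RBMS3 libraries and was listed at 0 in every LacZ library. No fold can be given against a group at 0, and its fitted log2 difference of 9.08 depends on the added 1. At 0 min the RBMS3 libraries held 484, 491 and 440.1. Estimated reads of the RBMS3 libraries went mainly to the protein-coding transcript PRRX1-201 (271.9, 296.7 and 271.3) and to PRRX1-208 (206, 155.2 and 150.1), which GENCODE release 29 marks as a processed transcript. With LacZ cells at 0, a difference in the loss of PRRX1 between the lines was not detectable.

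RBMS proteins are known to bind the pentamer AUAUA, and its places in the transcripts that differed most are shown here because the series asks which messages RBMS3 keeps. The search covered the last 500 bases of 1 GENCODE release 29 protein-coding transcript per gene (GRCh38, sense strand, overlapping matches counted, matches that share bases with AUUUA included). The AUAUA nearest the transcript end is in capitals, with up to 10 bases on each side. PRRX1 held 3 matches and the last is its final 5 bases. FBLN5 and POSTN, among the largest rises, held 1 each, and CDH1, EPCAM and IL1B, among the largest falls, held 1, 4 and 2.
PRRX1, chr1:170739405-170739419, plus strand: gucuuuuguuAUAUA
FBLN5, chr14:91870236-91870260, minus strand: ccgacugcggAUAUAugugucgcag
POSTN, chr13:37562705-37562729, minus strand: cauuuuucagAUAUAaagagaauua
CDH1, chr16:68835364-68835388, plus strand: gcuauaucgaAUAUAguucugugua
EPCAM, chr2:47386806-47386830, plus strand: caagugucuuAUAUAugcagaucua
IL1B, chr2:112829832-112829856, minus strand: gacugaaaauAUAUAagcucagauu

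Transcripts with the pentamer were found on both sides of the comparison. Of 11088 tested genes with such a transcript, 43.2% held AUAUA in these 500 bases. The share was 36.3% of the 1998 genes called higher in RBMS3 cells, 46.9% of the 2023 called lower and 44.2% of the 7067 not called. Among genes that differed by over 3 it was 47.4% of 196 higher and 39.5% of 296 lower genes. Base composition moved with these shares: the median content of A and U was 54.4% in the higher, 60.4% in the lower and 58.8% in the uncalled genes, and its part in the shares was not tested. AUUUA, the core of the classical AU-rich element, was in 50.2% of the higher, 64.2% of the lower and 57.8% of all genes. RBMS3, CADM3, BGN, CDH3 and KRT14 held no AUAUA in this window. A match is a string of letters and not a shown binding site.

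Over all genes the lines differed widely at 360 min. limma called 4259 genes (35.2% of those tested), of which 2118 (17.5%) were higher and 2141 (17.7%) lower in RBMS3 cells. When libraries were scaled to the sum of ribosomal protein genes, the split was 1517 higher and 2852 lower, and the median difference of all genes moved to −0.175 from −0.015. Differences over 1 were seen in 971 higher and 1170 lower genes, and over 3 in 213 and 317. In 637 called genes the difference was under 0.5, and for 1374 genes the 95% interval lay within 0.5 of no difference. Libraries of the lines did not overlap for 5893 genes (48.7%).

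Ranked by size among genes whose libraries do not overlap between the lines, the largest rises given here were of genes that LacZ cells held at or near 0. FBLN5, which codes for an elastic fibre protein, had normalized counts of 2061, 1995 and 1925 in RBMS3 libraries, against 0, 0 and 1.15 in LacZ libraries. CADM3, an adhesion molecule of neurons, had 1118, 1087 and 1051 in RBMS3 libraries and was listed at 0 in LacZ libraries. POSTN, a secreted matrix protein, had 1079, 1190.0 and 999.8 in RBMS3 libraries and 0, 0.587 and 0 in LacZ libraries. For these 3 genes every RBMS3 library was far above 0 and every LacZ library at or near 0. UCHL1, a deubiquitinase of neurons, had 1020.3, 1043 and 945 in RBMS3 libraries and 2.04, 0 and 0 in LacZ libraries, and FRMD3, a protein of the membrane skeleton family, had 767, 743 and 823 against 1.98, 0 and 2.24. RTN1, a reticulon of the endoplasmic reticulum, had 198, 185 and 143 in RBMS3 libraries and was listed at 0 in LacZ libraries. BGN, a small matrix proteoglycan, had 445, 305 and 361 in RBMS3 libraries and 0, 1.92 and 2.31 in LacZ libraries, and NID1, a linker of basement membranes, had 192, 223 and 196 against 1.02, 0 and 0. TBL1X, a subunit of nuclear receptor corepressor complexes, had 690.2, 674 and 724 in RBMS3 libraries, against 6.17, 9.69 and 0 in LacZ libraries. The rule that chose these genes required groups that do not overlap. The fitted log2 differences lay between 7.33 for NID1 and 10.59 for FBLN5, with limma adjusted p values of at most 1.9e-08, the value of TBL1X. For genes at or near 0 in a line these log2 values depend on the added 1.

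The largest falls, chosen by the same rule, were of genes that RBMS3 cells held at or near 0. MAL2, a protein of transcytosis to the apical membrane, was listed at 0 in RBMS3 libraries and had normalized counts of 1600.5, 1479.6 and 1581 in LacZ libraries. ESRP1, which sets epithelial splicing, was listed at 0 in RBMS3 libraries as well, against 996, 1088 and 1260.1 in LacZ libraries. CDH1, which codes for E-cadherin, was listed at 0 in RBMS3 libraries and had 478, 552 and 530.2 in LacZ libraries. These 3 messages were thus found in every LacZ library and in no RBMS3 library. CDH3, which codes for P-cadherin, had 5.73, 0.704 and 2.08 in RBMS3 libraries and 1717, 1758 and 1772 in LacZ libraries. EPCAM, an epithelial adhesion molecule, had 6.61, 13.6 and 2.05 in RBMS3 libraries and 2214, 2045 and 2263 in LacZ libraries, and LAD1, a protein of basement membrane anchorage, had 3.79, 0 and 0 against 1006, 999 and 1111. KLK5, a skin protease, was listed at 0 in RBMS3 libraries, against 609, 644 and 682 in LacZ libraries. IL1B and IL1A, the interleukin 1 cytokines, were listed at 0 in RBMS3 libraries and had 364, 360.2 and 358 for IL1B and 246, 359.8 and 439 for IL1A in LacZ libraries. AP1M2 and RAB25, both of polarized membrane traffic, were listed at 0 in RBMS3 libraries, against 538, 566 and 456 for AP1M2 and 318, 337 and 354 for RAB25 in LacZ libraries. HOOK1, a microtubule linker, had 1.60, 0 and 0 in RBMS3 libraries and 479, 369 and 312 in LacZ libraries. All these falls were called, with fitted log2 differences of −8.12 for HOOK1 to −10.60 for MAL2.

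**Figure D1:**
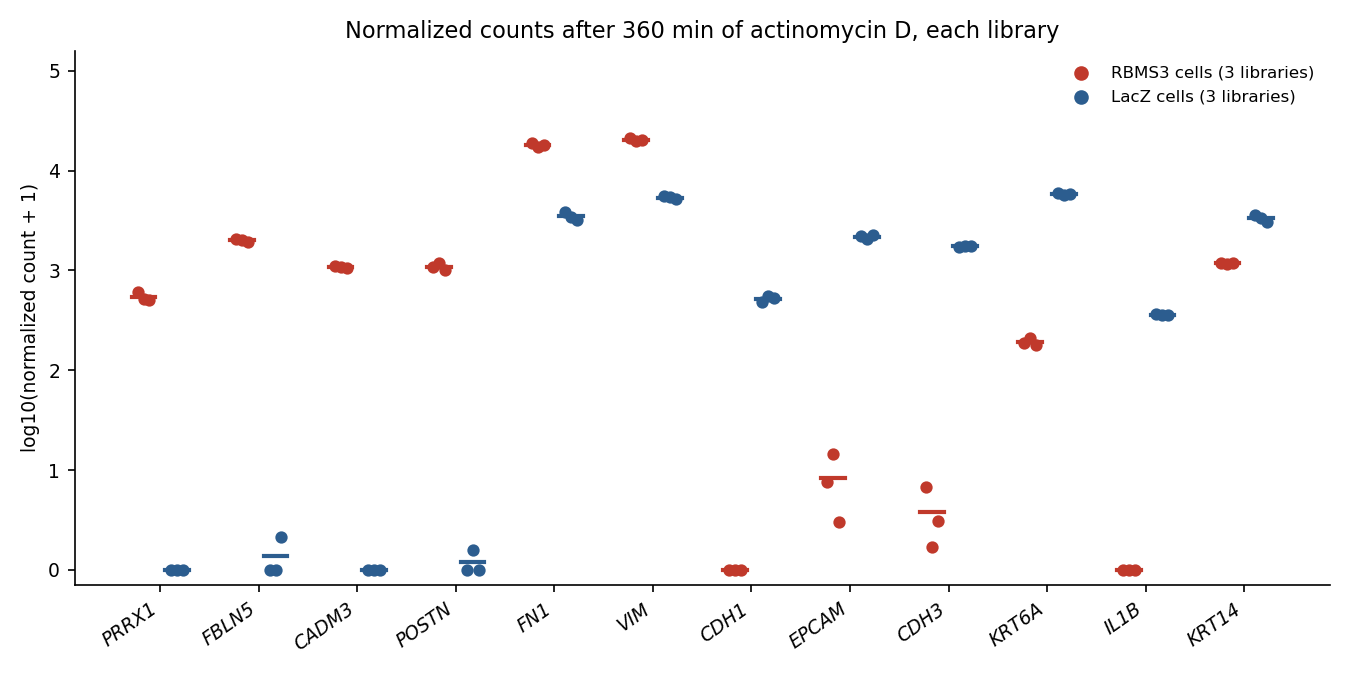
Normalized counts of 12 genes at 360 min on a log10(count + 1) axis, 1 point per library (3 RBMS3, red, left; 3 LacZ, blue, right) with a bar at the mean of 3. PRRX1 and CADM3 are at 0 in all LacZ libraries and CDH1 and IL1B at 0 in all RBMS3 libraries, while FN1, VIM, KRT6A and KRT14 are present in both lines.

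Messages abundant in either line were shifted by smaller ratios. CCDC80, a secreted matrix binding protein, had 7322, 6921 and 7035 in RBMS3 libraries and 706, 791 and 592 in LacZ libraries, 10.2-fold higher by the means. FN1, which codes for fibronectin, had 18777, 17220.0 and 18182 in RBMS3 libraries and 3828, 3401 and 3230.1 in LacZ libraries, 5.18-fold higher. VIM, the mesenchymal filament protein vimentin, had 21068, 19648 and 20006 in RBMS3 libraries and 5558, 5393 and 5141 in LacZ libraries, 3.77-fold higher. The rule that chose these abundant genes also required groups that do not overlap. The hair keratin KRT81 was 4.38-fold higher, the complement inhibitor CD59 3.23-fold, ERGIC1, a protein of the early secretory pathway, 2.70-fold, and FTH1, the heavy chain of ferritin, 2.68-fold. On the other side, KRT6A, a keratin of activated epithelia, had 186, 207 and 179 in RBMS3 libraries and 5989, 5662 and 5852 in LacZ libraries, 30.6-fold lower in RBMS3 cells. S100A2, a calcium-binding protein of basal epithelia, had 4086, 4096 and 3779 in RBMS3 libraries and 35840.0, 37094 and 35658 in LacZ libraries, 9.08-fold lower in RBMS3 cells. CD44, a hyaluronan receptor, was 3.55-fold lower, SFN, an epithelial 14-3-3 protein, 3.47-fold, and SLC7A5, an amino acid transporter, 2.33-fold. MT-ND2, a mitochondrially encoded subunit of complex I, was 2.07-fold lower and YWHAZ, another 14-3-3 protein and a common reference gene, 2.06-fold lower. All these abundant genes passed in limma with adjusted p values of at most 5.2e-06, the value of YWHAZ.

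**Figure D2:**
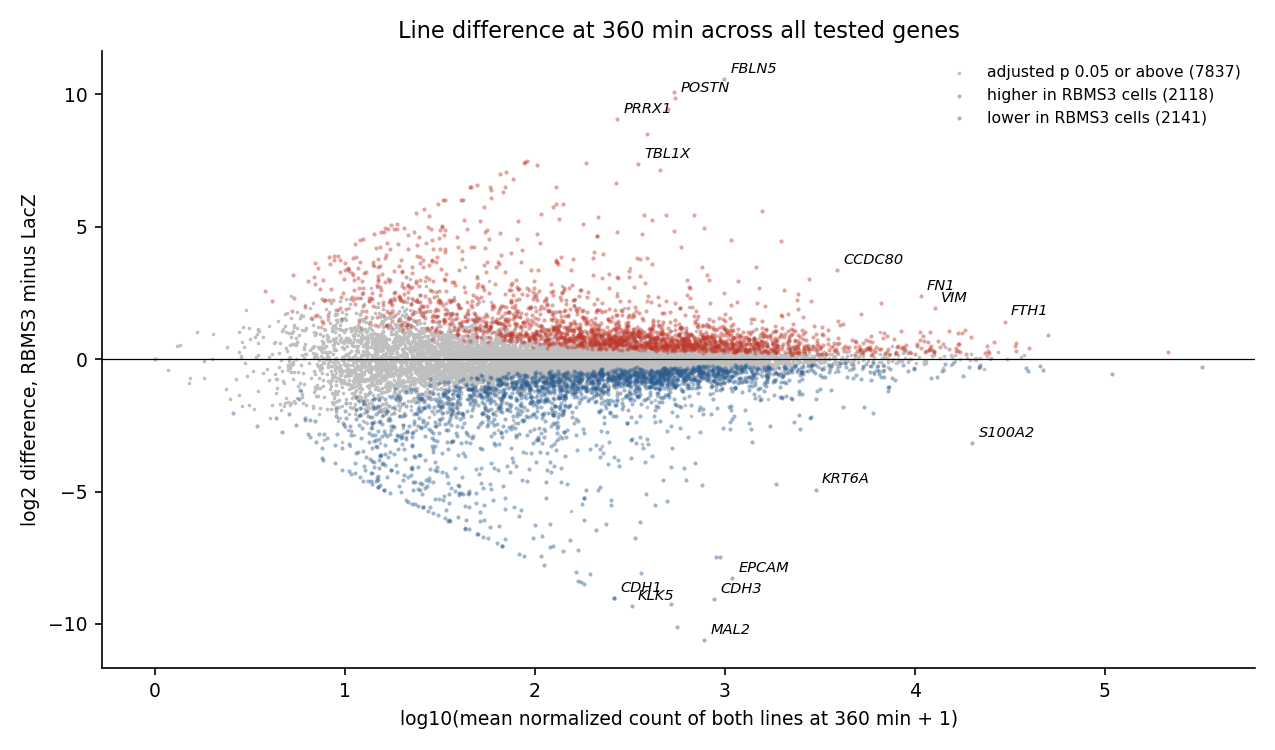
Log2 difference at 360 min (RBMS3 minus LacZ) against log10 of the mean normalized count of both lines + 1, 1 point per tested gene, coloured by the limma call. There are 2118 genes higher and 2141 lower, and 7837 that did not pass; the outer edges of the fan are genes at 0 in 1 line, whose difference is set by the other line and the added 1.

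Some messages were seen in 1 line only. At 360 min 12 genes were listed at 0 in every LacZ library with at least 50 in every RBMS3 library, against 17, 10 and 11 at 0, 90 and 180 min. Beside PRRX1, CADM3 and RTN1 they included COL4A4, a basement membrane collagen chain, with 139, 139 and 109 in RBMS3 libraries, ACKR1, a decoy chemokine receptor, with 148, 173 and 94.9, and PYGO1, a coactivator of Wnt signalling, with 95.5, 85.2 and 89.8. In the opposite direction 24 genes were listed at 0 in every RBMS3 library with at least 50 in every LacZ library, against 23, 18 and 23 at 0, 90 and 180 min. MAL2, ESRP1, KLK5, CDH1, AP1M2, IL1B, RAB25 and IL1A led them. A value of 0 in this table can also be a failed estimate, so these are given as listed values.

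The factors that drive or hold back the epithelial-mesenchymal transition moved in both directions. Of 19 tested, 8 were called higher and 8 lower (84.2% called, against 35.2% of all genes). Their median log2 difference was 0.06, against −0.015 for all tested genes. ZEB1, a repressor of E-cadherin, had 398, 404 and 412 in RBMS3 libraries and 9.07, 11.1 and 33.0 in LacZ libraries (4.66 ± 0.38, SE), and its paralog ZEB2 had 32.6, 28.998 and 41.1 against 0, 9.29 and 0.687. TWIST1, another driver of the transition, had 218, 274 and 227 in RBMS3 libraries and 15.9, 20.7 and 15.005 in LacZ libraries. These 3 drivers were low in LacZ cells and did not overlap with RBMS3 cells, as in 48.7% of all genes. FOXC2 (2.94), TWIST2 (2.24), TCF4 (1.83) and GATA3 (1.03), the last a luminal mammary factor, also passed as higher. SNAI2, the SLUG repressor, had 26.9, 69.2 and 32.3 in RBMS3 libraries and 28.0, 51.8 and 36.2 in LacZ libraries, a log2 difference of 0.06 ± 0.37 (SE) with a limma adjusted p of 0.91. The falls were the epithelial factors TP63 (−7.44), EHF (−6.77), GRHL2 (−6.43), OVOL1 (−2.48) and TFAP2A (−1.39), with SOX9 (−2.80), SOX4 (−0.84) and FOXC1 (−0.82). The call of OVOL1 was lost without RBMS3 replicate 1 (adjusted p 0.0628) or 2 (0.0624), and that of FOXC1 without RBMS3 replicate 2 (0.0637). GRHL2 and EHF were listed at 0 in all RBMS3 libraries.

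Most tested matrix glycoproteins and proteoglycans were called higher. Of 23 tested, 19 were higher and 1 lower (87.0% called, against 35.2% of all genes), with a median of 2.97. DCN, the collagen-binding proteoglycan decorin, had 13.6, 26.5 and 66.6 in RBMS3 libraries and was listed at 0 in LacZ libraries, and FBN1, the microfibril protein fibrillin, had 904, 1044 and 906 against 6.23, 57.0 and 23.3. The groups did not overlap in either gene, as in 48.7% of all genes. LTBP1, which holds latent TGF-beta in the matrix, differed by 5.86, VCAN, the proteoglycan versican, by 3.81, CCN2, a connective tissue growth factor, by 3.07 and SPARC, a collagen-binding protein, by 1.65. MFAP2, a microfibril protein, went the other way with 2.84, 0 and 0 in RBMS3 libraries and 90.8, 101 and 126 in LacZ libraries. Of 18 collagen genes 9 were higher and 3 lower (median 1.15). COL1A1 and COL1A2, the chains of type I collagen, differed by 3.81 for COL1A1 and 5.30 for COL1A2, COL3A1 by 5.54, and COL8A1 and COL5A2 by 4.51 and 3.85. The falls were COL17A1, the transmembrane collagen of hemidesmosomes (−7.46), COL4A6 (−1.40) and COL6A2 (−1.46), and the call of COL6A2 was lost without RBMS3 replicate 1 (adjusted p 0.187), RBMS3 replicate 3 (0.0556), LacZ replicate 1 (0.0642) or LacZ replicate 2 (0.0939). Of 14 enzymes that process or crosslink collagen 11 were higher and 1 lower (median 0.88), among them LOX (2.55), the oxidase that starts crosslinks, P4HA3 (4.40), a prolyl hydroxylase chain, and the collagen chaperone SERPINH1 (1.33). LOXL3 fell by 3.14 on the log2 scale.

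Matrix proteases, laminins and integrins changed in both directions. The shares called were 85.7%, 77.8% and 71.4% in that order, against 35.2% of all genes. The collagenase MMP1 had 137, 105 and 156 in RBMS3 libraries and 15.3, 18.3 and 17.3 in LacZ libraries, whereas the gelatinase MMP9 had 0, 0 and 5.15 against 304, 275 and 251. Neither pair of groups overlapped, which the rule that ranked these genes required and which held for 48.7% of all genes. Of 14 proteases and inhibitors 7 were higher and 5 lower, with TIMP1 (2.62), a metalloprotease inhibitor, higher, and the plasminogen activator PLAU (−3.11), MMP14 (−1.42) and TIMP3 (−1.82) lower. Laminin chains split by type: of 9 tested, LAMA4 (4.58), LAMB2 (1.87) and LAMA5 (1.15) were among 4 higher, and LAMA3 (−4.08) and LAMB3 (−1.93), chains of an epithelial laminin, were among 3 lower. Of 14 integrin chains 4 were higher, including ITGB3 (2.19) and the fibronectin receptor chain ITGA5 (1.20), and 6 were lower, including ITGB6 (−6.22), ITGB4 (−4.55) and ITGB8 (−2.80).

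Most tested genes of tight junctions, desmosomes and hemidesmosomes were called lower. Among all genes 17.7% were called lower and 17.5% higher. None of 25 tested tight junction and polarity genes was called higher and 22 were lower, with a median of −3.94. CLDN4, a claudin of the tight junction seal, was listed at 0 in RBMS3 libraries and had 115, 139 and 144 in LacZ libraries, and CLDN7 had 44.2, 55.7 and 42.6 in RBMS3 libraries against 676, 714 and 735. OCLN, which codes for occludin, had 0, 0.494 and 15.1 in RBMS3 libraries and 215, 82.5 and 149 in LacZ libraries. The scaffold TJP1, by contrast, had 846, 789 and 1175 in RBMS3 libraries and 727, 816 and 734 in LacZ libraries (0.28 ± 0.19, SE, limma adjusted p 0.27). PARD3, a polarity scaffold, differed by −0.04 and did not pass either. Of 17 desmosome and hemidesmosome genes 13 were lower and 3 higher (median −2.36), with DSG3 (−5.70), PPL (−4.12), DSC2 (−3.70) and the plaque protein DSP (−1.52) lower. The linker proteins PKP1 (0.53), PLEC (0.40) and DST (0.84) were the higher ones, and the call of DST was lost without RBMS3 replicate 3 (adjusted p 0.0612), LacZ replicate 1 (0.0551) or LacZ replicate 2 (0.0834). Among cadherins and catenins, the neural cadherin CDH2 (2.24, 3931, 4023 and 3974 in RBMS3 libraries against 817, 834 and 872 in LacZ libraries) and CDH4 (3.48) were higher. The junctional catenin JUP was lower (−5.35), whereas CTNNB1, the catenin that also carries Wnt signals, differed by −0.13 and did not pass (limma adjusted p 0.34).

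Most tested keratins were called lower, where 17.7% of all genes were. More genes of the actin cytoskeleton were called higher than lower, where 17.5% of all genes were called higher. Of 12 tested keratins 9 were lower and 2 higher, with a median of −2.13. KRT5, the basal partner of KRT14, had 1122, 917 and 1060.1 in RBMS3 libraries and 4492, 4619 and 4784 in LacZ libraries, and KRT17 had 972, 877 and 943 against 3996, 3903 and 4057. In both the LacZ libraries were all above the RBMS3 libraries, as in 24.5% of all genes, and the RBMS3 libraries still held substantial counts. KRT81 (2.13) and KRT7 (0.98) were the 2 higher keratins. KRT6A and KRT6B (−6.69) are close copies, as are KRT81 and its hair keratin neighbours, so the split of reads between such copies is uncertain. Of 23 genes of the actin cytoskeleton 14 were higher and 3 lower (median 0.57). TAGLN, the smooth muscle protein transgelin, had 4038, 3788 and 3570.3 in RBMS3 libraries and 183, 165 and 164 in LacZ libraries, and MYL9, a myosin light chain, differed by 4.84. The smooth muscle actin ACTA2 had 61.8, 50.7 and 60.0 in RBMS3 libraries and 84.7, 58.9 and 68.4 in LacZ libraries and did not pass (−0.28, limma adjusted p 0.48).

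Of the epithelial serpins and kallikreins, S100 and cornified envelope genes and cytokines, more were called lower than higher in each list. Over all genes the shares were 17.7% lower and 17.5% higher. None of 12 tested epithelial serpins and kallikreins was called higher and 9 were lower (median −5.56), with SERPINB2, an inhibitor of plasminogen activators, at 0 in RBMS3 libraries and 221, 230.0 and 212 in LacZ libraries. SERPINB5 (0.18), the serpin maspin, did not pass. Of 14 S100 and cornified envelope genes 8 were lower and 3 higher; S100A14 differed by −7.47 and S100A9 by −6.10, and S100A6 (1.01) and ANXA2 (1.09) were higher. Of 15 cytokines and chemokines 9 were lower and 2 higher (median −1.80). CXCL1, which attracts neutrophils, had 11.4, 14.7 and 10.3 in RBMS3 libraries and 177, 205 and 188 in LacZ libraries, and CXCL8 had 3.75, 3.10 and 2.04 against 23.2, 35.2 and 38.8. CXCL5, of the same family, went the other way with 391, 343 and 422 in RBMS3 libraries and 23.5, 14.4 and 33.5 in LacZ libraries, and MIF (0.44) was also higher. CXCL1, CXCL5 and MIF were thus above 0 in every library of both lines after 360 min. S100A9, IL1A and IL1B, like SERPINB2, were listed at 0 in all RBMS3 libraries.

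Growth factor genes were called in both directions. Of all genes 35.2% were called, 17.5% higher and 17.7% lower. The lists here ranged from 50% called, for TGF-beta, Wnt and hedgehog and Notch genes, to 80% for IGF binding proteins. Among EGF receptor ligands and receptors 7 of 9 were lower and none higher (median −1.48), with TGFA at 13.3, 9.42 and 7.21 in RBMS3 libraries and 516, 532 and 422 in LacZ libraries, and HBEGF (−3.18), EREG (−2.10) and AREG (−1.48) lower as well. Of 25 receptor tyrosine kinase and other growth factor genes 7 were higher and 8 lower. FGFR1 had 651, 693 and 858 in RBMS3 libraries and 26.6, 6.07 and 22.1 in LacZ libraries, and its paralog FGFR2 had 2.42, 2.01 and 0 in RBMS3 libraries against 82.0, 37.8 and 99.0. The pair thus pointed in opposite directions. Libraries that do not overlap, as in 48.7% of all genes, were a condition for ranking either gene. PDGFB (−4.74) and FGFBP1 (−4.59) were lower, and PDGFC (1.29) and FGF2 (1.87) higher. IGF binding proteins, which hold insulin-like growth factors, were higher in 4 of 5 cases (median 3.47): IGFBP3 had 3223, 2808 and 3204 in RBMS3 libraries and 90.9, 57.3 and 47.4 in LacZ libraries. Of 24 TGF-beta and activin genes 7 were higher and 5 lower; FST, which sequesters activin, differed by −5.49 and the activin subunit INHBA by −1.81. Of 20 Wnt genes 3 were higher and 7 lower, with the inhibitor SFRP1 (−4.96) and the ligand WNT7B (−3.53) lower and the inhibitor DKK1 (1.36) higher. Of 16 hedgehog and Notch genes 7 were lower, including the Notch ligands JAG2 (−6.25) and JAG1 (−2.20), and HHIP, which binds hedgehog, was the 1 higher gene (4.97).

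Most tested interferon and antigen presentation genes that were called at 360 min were lower in RBMS3 cells. The shares called were 60.9% and 80% in that order, against 35.2% of all genes. Of 23 tested interferon response genes 11 were lower and 3 higher, with a median of −1.28 at 360 min and −0.27 at 0 min. IFIT1, an interferon-induced RNA-binding protein, had 4.74, 0 and 0 in RBMS3 libraries and 19.4, 26.9 and 24.3 in LacZ libraries, and IFIH1, a sensor of double-stranded RNA, had 0, 1.93 and 8.48 against 50.9, 53.2 and 59.7. IFITM2 (2.99), IFITM3 (0.75) and IFI44L (3.43) were the higher members, while IFI44, the paralog of IFI44L, was lower (−3.40). Of 15 antigen presentation genes 11 were lower and 1 higher (median −0.87 at 360 min and −0.02 at 0 min). HLA-B had 305, 249 and 241 in RBMS3 libraries and 812, 973 and 969.8 in LacZ libraries, and the immunoproteasome subunit PSMB9 had 102, 105 and 98.7 against 342, 381 and 389. B2M, the light chain of the class I complex, was higher (10982, 8963 and 9225 in RBMS3 libraries, 5837, 5749.7 and 5723 in LacZ libraries). The change of the difference between 0 and 360 min was called downward for 3 of the 23 interferon and 5 of the 15 antigen presentation genes and upward for none of them, where 3.46% of all genes were called downward and 4.32% upward.

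Genes of sterol synthesis were mostly higher. Of 24 tested genes 18 were higher and 1 lower, with a median of 0.91 at 360 min and 0.30 at 0 min, and the change of the difference was called upward for 9 of the 24 and downward for 1, where 4.32% of all genes were called upward and 3.46% downward. FDFT1, which makes squalene, had 1591, 1459 and 1330.2 in RBMS3 libraries and 514, 544 and 550.2 in LacZ libraries, and LSS, which makes lanosterol, had 273, 250.2 and 217 against 85.1, 84.5 and 123. HMGCS1 (1.27), DHCR7 (1.26) and INSIG1 (1.21) were also higher. In fatty acid synthesis 5 of 17 were higher and 2 lower (41.2% called, against 35.2% of all genes), with FADS1 (2.01), a desaturase, SCD (1.13), another, and FASN (0.71), the synthase, higher.

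Lists of energy metabolism had medians nearer to 0. Called were 47.8% of glycolysis, 40.8% of nuclear respiratory chain and 60% of mitochondrially encoded genes, against 35.2% of all genes. Of 23 glycolysis genes 6 were higher and 5 lower with a median of 0.03, against 0.42 at 0 min, and the change of the difference was called downward for 10 of them, where 3.46% of all genes were. LDHA differed by 0.64 at 360 min and SLC2A1, a glucose transporter, by −0.89, and GAPDH by 0.03, which did not pass. Nuclear genes of the respiratory chain were higher in 19 of 49 cases and lower in 1 (40.8% called, median 0.22), led by COX5A (1.00) and NDUFV1 (0.94). Mitochondrially encoded genes were lower in 9 of 15 cases and higher in none (median −0.31): MT-ND1 had 797, 813 and 772 in RBMS3 libraries and 2235, 2383 and 2249 in LacZ libraries. MT-CO2, by contrast, differed by 0.03 and did not pass.

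Ribosomal protein and translation genes shifted by small amounts. The shares called were 53.2% of ribosomal protein genes and 51.6% of translation factors, against 35.2% of all genes. Of 79 ribosomal protein genes 32 were higher and 10 lower, with a median of 0.16, against 0.35 at 0 min with 50 higher and 7 lower. Scaling the libraries to the sum of these genes sets that median near 0 by construction. The change of the difference between 0 and 360 min was called downward for 16 of the 79 genes and upward for 1. Of all genes 3.46% were called downward and 4.32% upward. RPLP2 had 20431, 21305 and 20021 in RBMS3 libraries and 9756, 10168 and 9729 in LacZ libraries, and RPL7 had 10134, 10546 and 9745 against 15690.0, 16674 and 15917. Neither pair overlapped. Of 31 translation factors 13 were higher, led by EIF3F (1.24), and EIF4A1 (−0.67), EIF4G1 (−0.59) and PABPC1 (−0.41) were lower. These 3 are the helicase, the scaffold and the poly(A)-binding protein of cap-dependent initiation.

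Heat shock genes and the BCL2 family were called in both directions. Of 29 heat shock and chaperonin genes 13 were lower and 6 higher, and CRYAB, a small heat shock protein, stood out with 56.8, 58.7 and 43.8 in RBMS3 libraries and 7.90, 7.43 and 0 in LacZ libraries. HSP90AB1 (−0.44) and HSPD1 (−0.47) were lower. In the BCL2 family the survival gene BCL2 had 102, 115 and 82.2 in RBMS3 libraries and 1.82, 1.19 and 2.05 in LacZ libraries, and the killer BIK had 1.90, 0 and 3.09 against 101, 80.8 and 53.2. Each was near 0 in the line where it was low. Of 20 p53 targets 2 were higher and 5 lower, 35% called and thus close to the 35.2% of all genes, with CDKN1A, the cell cycle inhibitor p21, at 136, 168 and 148 in RBMS3 libraries and 712, 811 and 763 in LacZ libraries, and MDM2 (0.07) not passing. NRF2 and glutathione genes were higher in 8 of 28 cases and lower in 5, with GCLM (−1.30) and GCLC (−0.96), the subunits of glutathione synthesis, lower. Of 31 proteasome subunits 4 were higher and 5 lower, and of 25 unfolded protein response genes 5 were higher and 4 lower. These shares, 29% and 36% called, are also near that of all genes.

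Immediate early and labile genes were called at 360 min about as often as all genes. Of 37 tested 5 were higher and 10 lower, 40.5% called against 35.2% of all genes, with a median of −0.53 at 360 min and 0.48 at 0 min. The change of the difference was called downward for 6 of the 37 and upward for 1, where 3.46% of all genes were called downward and 4.32% upward. ID2, an inhibitor of basic helix-loop-helix factors, had 40.6, 25.3 and 15.2 in RBMS3 libraries and 0, 1.14 and 2.14 in LacZ libraries, and GADD45B (1.17) and ID1 (1.08) were also higher. IER3, an early response gene, had 28.4, 37.7 and 40.2 in RBMS3 libraries and 434, 421 and 398 in LacZ libraries, and PHLDA1 (−1.66) was lower too. Neither ID2 nor IER3 overlapped between the lines, as was so for 48.7% of all genes. KRAB zinc finger genes, whose messages are known to turn over fast, were higher in 6 and lower in none of 62 tested cases, 9.68% called, with a median of 0.29. Histones of the replication-dependent kind gave 1 higher and 1 lower of 15 (13.3% called). For such low genes 3 libraries a group leave many differences undetectable.

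Cell cycle genes were called in both directions at 360 min. Called were 50% of G2 and mitosis genes and 44.8% of S phase genes, against 35.2% of all genes. Of 30 G2 and mitosis genes 7 were higher and 8 lower, against 13 and 3 at 0 min, and the change of the difference was called downward for 9 of them, where 3.46% of all genes were. CDK1, the mitotic kinase, had 382, 626 and 323 in RBMS3 libraries and 769, 895 and 1049.5 in LacZ libraries, and CCNB2 (0.84) was higher. Of 29 S phase genes 4 were higher and 9 lower. TYMS, the thymidylate synthase, had 2302, 2067 and 1989.8 in RBMS3 libraries and 729.7, 704 and 810.3 in LacZ libraries, and the cyclin CCND2 had 104, 155 and 156 against 3395, 3875 and 3518.

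Of 57 tested genes that bind or degrade RNA, 4 were higher and 12 lower, 28.1% called against 35.2% of all genes, with a median of −0.16. ELAVL2, a neuronal protein that binds AU-rich elements, had 15.8, 21.7 and 12.7 in RBMS3 libraries and 216, 171 and 201 in LacZ libraries, and IGF2BP1, which protects messages, had 67.9, 65.8 and 10.9 against 236, 225 and 271. Both were lower with no overlap, which held for 48.7% of all genes and was a condition of the ranking. PUM2 (−1.42), a repressor that binds 3' ends, and IGF2BP3 (−1.02) followed. DCP1B, a decapping cofactor, was higher (17.8, 20.7 and 11.1 in RBMS3 libraries against 2.08, 1.95 and 0 in LacZ libraries). KHSRP, which drives decay of AU-rich messages, differed by 0.01 and CELF1 by −0.01, and neither passed. Of 41 splicing factors none was higher and 9 were lower (22% called), with ESRP2 (−1.46) after ESRP1.

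Neural and synaptic genes were called in both directions. Of 28 neural and synaptic genes 14 were higher and 6 lower (71.4% called, median 1.20). After CADM3, UCHL1 and RTN1, the adhesion molecule NRCAM went the other way, with 1.24, 1.3209 and 2.02 in RBMS3 libraries and 81.8, 126 and 52.8 in LacZ libraries, and SEMA3A (−3.15), an axon guidance signal, CADM1 (−2.60) and L1CAM (−2.03) were lower as well. Of 26 homeobox genes 6 were higher and 2 lower, 30.8% called and thus near the 35.2% of all genes. HOXC8 had 256, 257 and 279 in RBMS3 libraries and 97.1, 78.9 and 112 in LacZ libraries, HOXC9 differed by 0.70 and IRX2 by −0.91. Of 30 long non-coding RNAs 8 were higher and 3 lower (36.7% called), and MEG3, an imprinted transcript, had 266, 84.1 and 104 in RBMS3 libraries and 0, 0 and 0.677 in LacZ libraries. Common reference genes were not flat: of 18, 5 were higher and 4 lower, with TBP (−1.13) and POLR2A (−0.66) lower, and HPRT1 (−0.07) not passing.

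**Figure D3:**
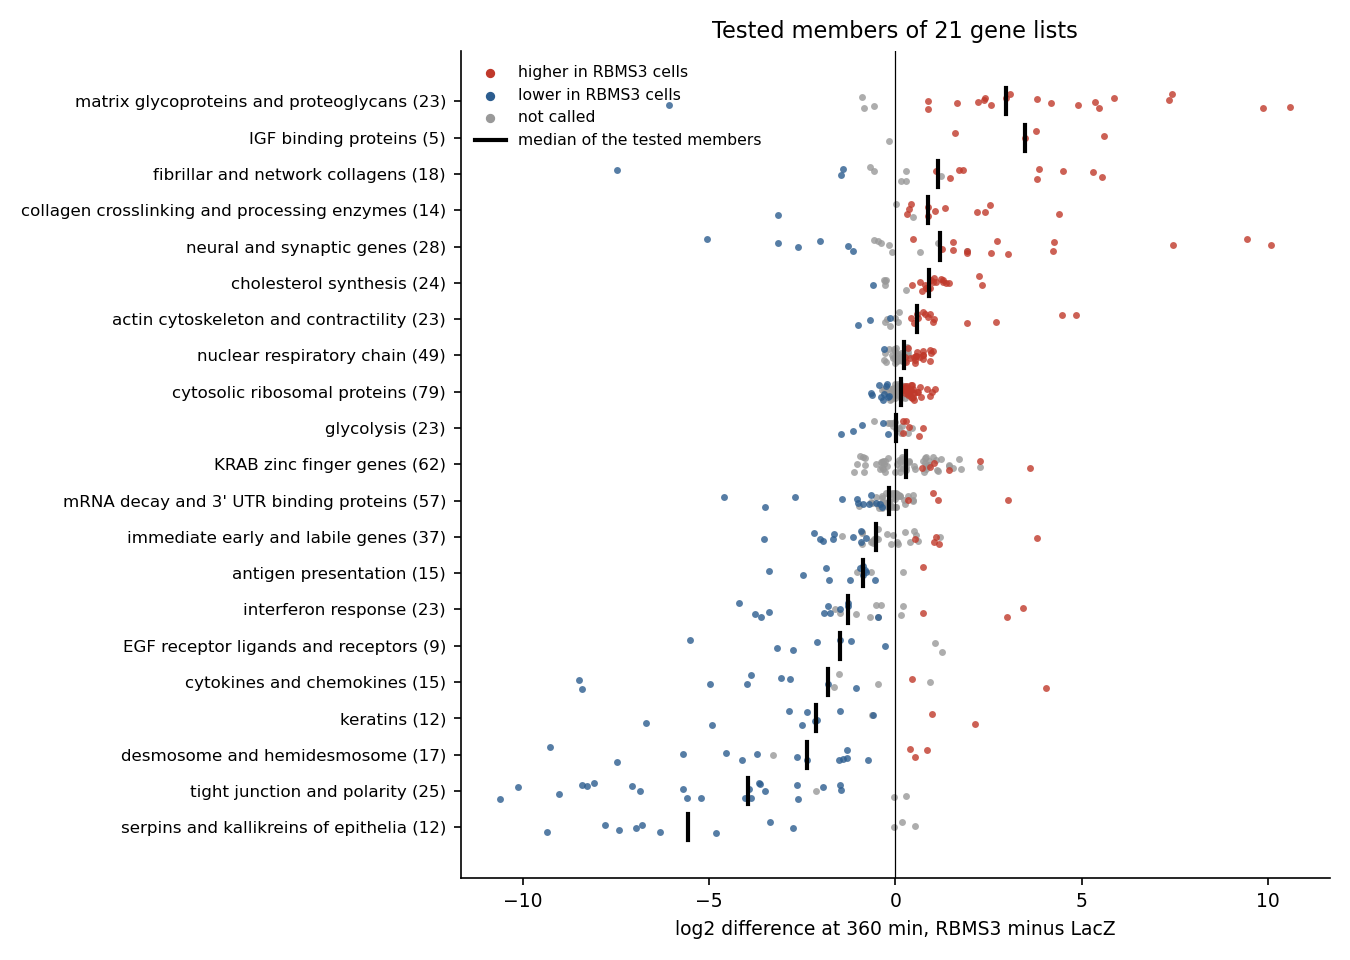
Log2 difference at 360 min (RBMS3 minus LacZ) of the tested members of 21 gene lists, 1 point per gene, with the number tested in brackets and a black bar at the median. Medians run from 3.47 for IGF binding proteins and 2.97 for matrix glycoproteins to −5.56 for epithelial serpins and kallikreins, and no tight junction gene was called higher.

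Markers of cell types were read against the label of mammary epithelium. Among all genes 17.5% were called higher and 17.7% lower at 360 min. Of 11 tested mammary epithelial markers 10 were lower in RBMS3 cells and KRT7 was higher, and of the defining ones CDH1, ESRP1 and GRHL2 were at 0 in all RBMS3 libraries. Summed normalized counts of the 12 genes of the list were 28040 to 29770 in RBMS3 libraries and 33760 to 34580 in LacZ libraries. KRT7 carried most of the sum in RBMS3 libraries, with 24072, 24364 and 22715 there and 11793, 12077 and 12063 in LacZ libraries. Of 10 tested fibroblast markers 7 were higher and none lower, with sums over 12 genes of 5862 to 5925 in RBMS3 libraries and 1390 to 1437 in LacZ libraries. Leukocyte markers summed to 38.5 to 46.3 in RBMS3 libraries and 61.0 to 104 in LacZ libraries, with CD3E and LYZ at 0 in all 6 and PTPRC at 0 in 5. Endothelial markers summed to 2.85 to 15.2 in RBMS3 libraries and 13.04 to 34.9 in LacZ libraries, with CDH5 and CLDN5 at 0 in all 6. Adipocyte markers summed to 6.68 to 21.4 in RBMS3 libraries and 0 to 2.98 in LacZ libraries, with ADIPOQ at 0 in all 6. Some list members were too low to be tested. The fibroblast markers PDGFRA (0.353, 0 and 0.384) and LUM (0, 1.05 and 0) were near 0 in RBMS3 libraries and at 0 in LacZ libraries. The epithelial marker KRT19 was at 0 in RBMS3 libraries and had 2.04, 4.81 and 2.31 in LacZ libraries. The LacZ cells thus held most of the epithelial markers, with fibroblast markers at a lower sum. The RBMS3 cells held keratins and most fibroblast markers side by side, and the part of a mixture of cells in this was not tested.

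Most of the difference at 360 min was already there before the drug. Of the 4259 genes called at 360 min, 2663 (62.5%) were called in the same direction at 0 min, where 2250 (18.6%) were higher and 2284 (18.9%) lower in RBMS3 cells, and those 2663 are 58.7% of the 0 min calls. A further 1499 were called at 360 min and not at 0 min, which is no test of a change, and 97 were called in opposite directions. The difference at 360 min minus that at 0 min, tested in the same limma fit, was called for 940 genes (7.77%), 522 upward (4.32%) and 418 downward (3.46%). Without LacZ replicate 2 of 0 min, the library with the largest sum in its group, it was 596 upward and 506 downward. Without RBMS3 replicate 2 of 360 min it was 375 and 316. Within the groups compared alone, with a smaller pool to estimate the spread, 244 and 211 were called. Transcripts of the upward genes were poor in A and U (median 49.8% of the last 500 bases, AUAUA in 26.4% of 489), and those of the downward genes were near the average (59.2%, AUAUA in 43.9% of 383). The RBMS3 libraries at 0 min stood apart from the later ones, and the part of that in these changes was not tested.

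**Figure D4:**
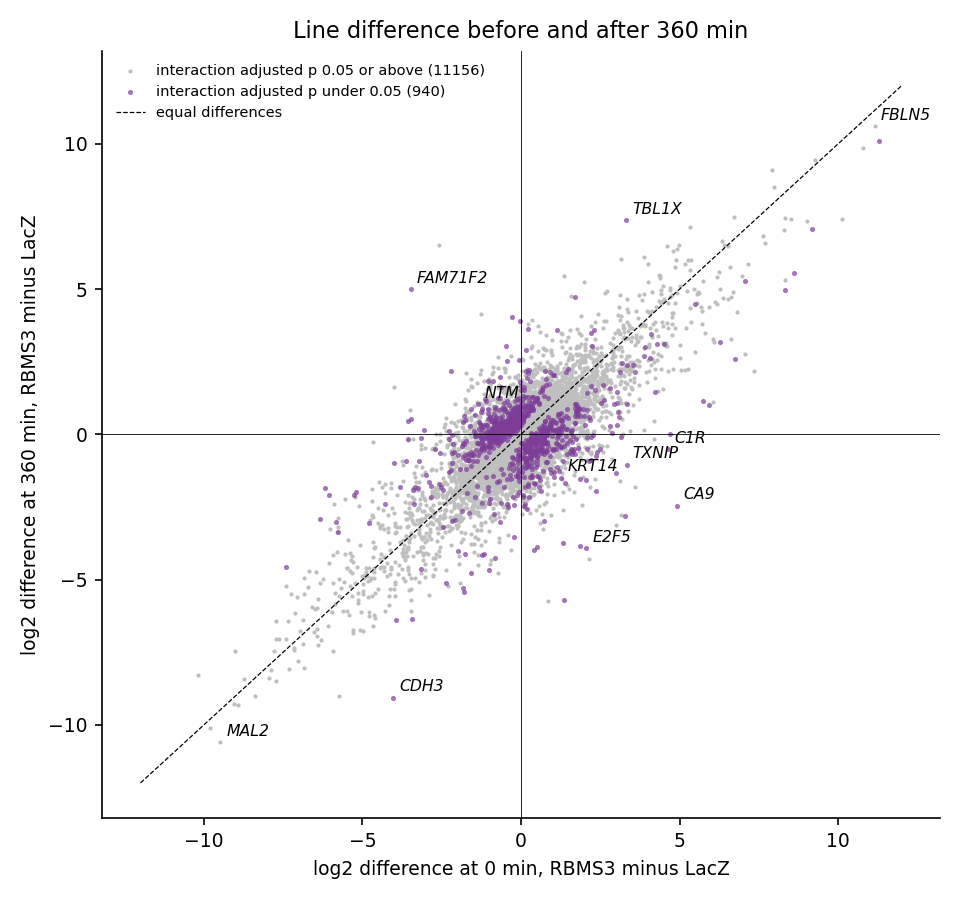
Log2 difference at 360 min against that at 0 min (both RBMS3 minus LacZ), 1 point per tested gene, with the 940 genes of a called change in purple and a dashed line of equal differences. Most genes lie along the line, and FAM71F2, CA9, E2F5, TXNIP, KRT14 and NTM lie in the quadrants where the sign turned.

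After 90 min few changes of the line difference passed, which does not show that it stayed the same. Set against the difference at 90 min in place of 0 min, the difference at 360 min was called for 1 gene (0.00827%), and set against 180 min for none; at an unadjusted p under 0.05 there were 790 and 618 genes, against 2566 for 0 min. The 1 gene was RNA5S1, a multicopy 5S RNA gene chosen after its values were seen because it was the sole call. It had 313, 324 and 327 in RBMS3 libraries and 1460.5, 1472 and 1180.2 in LacZ libraries at 360 min. At 90 min it had 186, 129 and 182 in RBMS3 libraries and 122, 170 and 76.6 in LacZ libraries. Both lines thus held more of RNA5S1 at 360 min than at 90 min, and the cause was not tested. KRT14, a basal keratin, had 6168, 6108 and 5902 in RBMS3 libraries at 0 min, 723, 766 and 884 at 90 min, and then 1198, 1159.8 and 1195 at 360 min. LacZ libraries had 2133, 3053 and 2478 at 0 min, 2356, 2601 and 2594 at 90 min, and then 3557, 3378 and 3056 at 360 min. The RBMS3 libraries were thus all above LacZ libraries at 0 min and all below them at each later time, and the change of the difference was −2.75 ± 0.14 (SE, limma adjusted p 8.6e-11). TXNIP, an inhibitor of thioredoxin with a short-lived message, had 776, 727 and 806 in RBMS3 libraries at 0 min, 26.4, 73.7 and 60.8 at 90 min, and then 25.6, 23.1 and 46.4 at 360 min. LacZ libraries held 75.4, 61.4 and 93.9 of TXNIP at 0 min and 64.4, 68.3 and 57.8 at 360 min. At 360 min the call of TXNIP was close (−1.05, adjusted p 0.031 in limma), and it was lost when any of 5 libraries was left out (adjusted p 0.0502 to 0.123); RBMS3 replicate 3 was the exception.

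TBL1X and NTM had larger counts in RBMS3 libraries at 360 min than at 0 min. TBL1X had 64.8, 88.3 and 79.6 in RBMS3 libraries at 0 min, 611, 536 and 609.7 at 90 min, and then 690.2, 674 and 724 at 360 min. LacZ libraries had 8.34, 12.3 and 2.99 at 0 min and 6.17, 9.69 and 0 at 360 min. Every RBMS3 library of 90 and 360 min was thus above every RBMS3 library of 0 min, libraries that stand apart from the later ones, and the part of that in these values was not tested. The change of the difference was 4.06 ± 0.93 (limma adjusted p 0.0088; 0.0539 within the groups compared alone). NTM, a neuronal adhesion molecule, had 55.8, 54.7 and 41.3 in RBMS3 libraries at 0 min and 308, 368 and 313 at 360 min. LacZ libraries had 121, 183 and 101 of NTM at 0 min and 169, 171 and 137 at 360 min. The line with more NTM was thus LacZ at 0 min and RBMS3 at 360 min. CDH3 had 83.0, 86.1 and 88.8 in RBMS3 libraries at 0 min, and its difference was wider at 360 min (−5.03 ± 0.99, limma adjusted p 0.0028). BGN had 1452, 1639 and 1542 in RBMS3 libraries at 0 min and 232, 253 and 274 at 90 min. Its level in RBMS3 libraries was thus lower at 90 min than at 0 min.

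**Figure D5:**
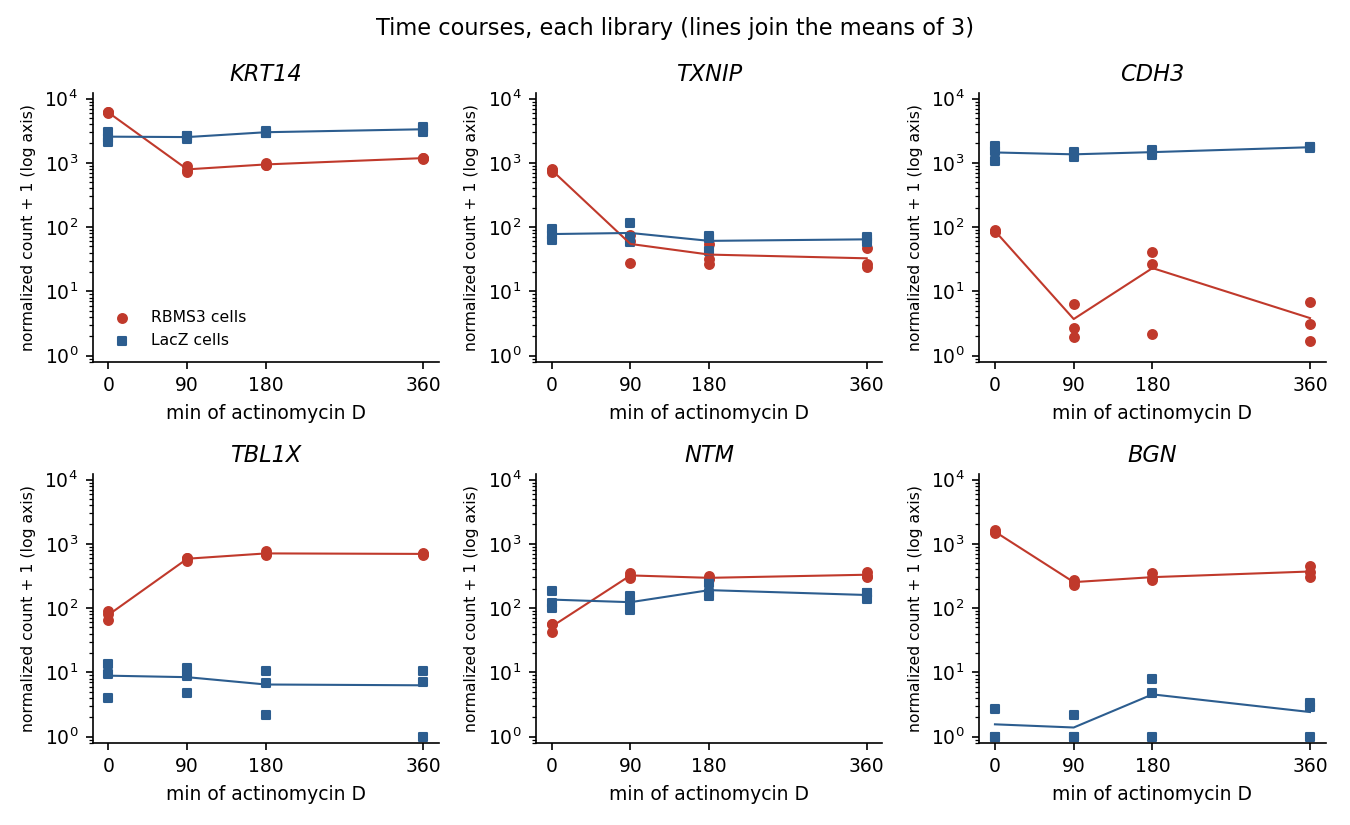
Normalized counts + 1 (log axis) of 6 genes in every library over 0, 90, 180 and 360 min, RBMS3 cells in red circles and LacZ cells in blue squares, lines through the means of 3. In RBMS3 cells KRT14, TXNIP and BGN lie lower and TBL1X and NTM higher at 90 min than at 0 min, with smaller moves of the means afterwards.

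Other genes with a changed difference were lower in level. CA9, a carbonic anhydrase induced by low oxygen, had 185, 169 and 298 in RBMS3 libraries at 0 min and 10.8, 5.40 and 3.19 at 360 min. LacZ libraries had 21.4, 0 and 14.8 of CA9 at 0 min and 25.8, 33.7 and 54.8 at 360 min. C1R, a complement protease, had 184, 153 and 246 in RBMS3 libraries at 0 min and 15.983, 4.72 and 7.99 at 360 min. LacZ libraries had 12.2, 5.56 and 4.45 of C1R at 0 min and 11.5, 15.2 and 11.5 at 360 min. In both the RBMS3 libraries of 0 min held the highest values. E2F5, a factor that represses cell cycle genes, had 2.92, 14 and 5.30 in RBMS3 libraries and 116, 103 and 105 in LacZ libraries at 360 min, against 90.1, 55.1 and 76.8 in RBMS3 libraries and 32.5, 4.74 and 28.0 in LacZ libraries at 0 min. FAM71F2 had 84.5, 65.3 and 35.6 in RBMS3 libraries and 2.32, 0.873 and 0 in LacZ libraries at 360 min. At 0 min it had 2.43, 8.98 and 3.73 in RBMS3 libraries and 65.7, 61.6 and 52.7 in LacZ libraries. At 180 min it had 1.39, 0 and 2.89 in RBMS3 libraries and 5.69, 3.86 and 35.1 in LacZ libraries. For E2F5, LacZ libraries had 14.6, 61.1 and 15.2 and RBMS3 libraries 39.0, 11.4 and 13.6 at 180 min. From 180 to 360 min counts thus rose, in RBMS3 libraries for FAM71F2 and in LacZ libraries for E2F5, and the cause was not tested. WDR27, a protein of the WD repeat family, had 52.8, 58.9 and 34.2 in RBMS3 libraries and 3.73, 7.40 and 4.32 in LacZ libraries at 360 min, against 71.7, 52.1 and 43.8 in RBMS3 libraries and 92.0, 85.4 and 55.9 in LacZ libraries at 0 min. For WDR27 the LacZ libraries were the lower ones at 360 min and overlapped with RBMS3 libraries at 0 min. LHX1-DT, a divergent transcript of a homeobox gene, had 19.8, 19.1 and 40.1 in RBMS3 libraries and 196, 176 and 217 in LacZ libraries at 360 min, and 2.66, 2.92 and 0 in RBMS3 libraries at 0 min.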

How the data were processed

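Libraries of 3' ends (QuantSeq, 75 base single reads) were made from RNA of RBMS3 and LacZ cells at 0, 90, 180 and 360 min of actinomycin D, 3 each. Per the submitters' processing notes, reads went through Trim Galore (version 0.6.6) and Salmon (1.4.0), and DESeq2 (1.32.0) was also used. Their genome build was not given in the sources used here. In the deposited table are normalized counts, a signal per gene that is not whole, and the authors' size factors are not given, so no count test was run. The deposited Salmon files hold estimated counts (expected counts) per transcript, with totals of 4426445 to 9856338 per library and 7812047 to 8767496 for RBMS3 cells at 360 min. Of the 24 samples, 12 have a transcript file whose name carries another sample's title, among them all LacZ samples at 360 min. These files were therefore used for depth and for transcripts of the RBMS3 libraries only, and the contrast rests on the table, whose columns match the titles. Without a usable count per gene, no counting interval is given.

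From the table, log2(normalized count + 1) of 12096 genes with a mean of at least 10 over the 24 libraries was fitted with limma 3.58.1 (R 4.3.3, trended variance), with a mean for each of 8 groups, which share 16 residual degrees of freedom. The 360 min contrast and its change from 0 min were tested with Benjamini-Hochberg adjustment over all genes, and the procedure was tested on simulated data. There, among genes with a mean of at least 50, 56% of 100 log2 differences of 1 were called. Of 100 differences of 2, 93% were called. A gene that did not pass can thus still differ. Replicate numbers were not used to pair libraries: deviations of same-numbered libraries correlated at −0.0124 to 0.00873 at 360 min. Genes named are the 12 largest rises and falls, the 8 largest of each among genes with a mean of at least 5000, up to 4 members with the largest difference of each list with those against its majority direction and those closest to 0, genes listed at 0 in 1 line, and the 10 largest changes between times in each direction with genes of opposite calls. Ranked genes had to average 50 or more in the line with more of them, with libraries that do not overlap, and lists of at most 30 genes may be named in full. Some genes that this rule names are not reported here. The members and lists were chosen with earlier results of these data known. KRT6A and KRT6B, hair keratins, HLA class I genes, IFITM genes, heat shock 70 genes, metallothioneins, ribosomal protein genes and 5S RNA genes have near-identical copies, so their values are uncertain. Alternatives were other pseudocounts, filters, scalings, sample sets, a replicate block and leaving out each library.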

Additional observations from a re-analysis of the deposited data

Results flagged for a closer look

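The difference between the lines was not the same at 360 min as at 0 min for the genes given here, by the limma test of the change itself (adjusted p under 0.05 over 12096 genes). Values are the RBMS3 minus LacZ difference at 360 min less that at 0 min, on the log2 scale. In the upward direction they were 8.49 for FAM71F2, 4.38 for PGPEP1, 4.32 for FOXA2, 4.31 for IPO5P1, 4.06 for TBL1X, 4.02 for SPATA13, 3.96 for FOXQ1, 3.49 for WDR27, 3.41 for LHX1-DT, 3.40 for KCNAB2 and 2.41 for NTM. In the downward direction they were −7.36 for CA9, −7.08 for ZNF286B, −5.97 for E2F5, −5.69 for SGSM1, −5.13 for C1R, −5.04 for MT-TH, −5.03 for CDH3, −4.90 for C1QL1, −4.69 for PPP1R3C, −4.61 for IGSF9B, −4.37 for TXNIP, −2.75 for KRT14, −2.45 for GNPDA2 and −2.35 for MT-TS2. The RBMS3 libraries at 0 min stand apart from those at later times, and the part of that in these values was not tested. FOXA2 was listed at 0 in every RBMS3 library of both times, and FOXQ1 in all but RBMS3 replicate 3 of 360 min (4.12). Their upward values thus come mainly from lower LacZ counts at 360 min than at 0 min. PPP1R3C and IGSF9B were at or near 0 in LacZ libraries, so their downward values come mainly from lower RBMS3 counts. IPO5P1 had 16.465, 20.013 and 399.42 in RBMS3 libraries at 360 min, with replicate 3 far above the others.

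Several of these calls were lost without a single library. ZNF286B had adjusted p values of 0.0527 to 0.0788 without any 1 of 9 of the 12 libraries, PGPEP1 of 0.056 to 0.103 without any 1 of 8, and FOXA2 of 0.0506 to 0.0808 without any 1 of 7. IPO5P1 reached 0.0676 without LacZ replicate 1 of 360 min, 0.0527 without LacZ replicate 3 of 360 min and 0.072 without RBMS3 replicate 3 of 0 min, and SPATA13 0.0623 without LacZ replicate 3 of 360 min. In a fit of only the groups compared the adjusted p was 0.137 for PGPEP1, 0.133 for IPO5P1, 0.0602 for FOXA2, 0.0539 for TBL1X and 0.0504 for GNPDA2.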

How the results depend on the processing

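The counts at 360 min stayed within 1.5 times their main values under every alternative run. Leaving out 1 library at a time gave 1775 to 1854 higher and 1834 to 1894 lower genes at 360 min, and 375 to 596 upward and 311 to 506 downward changes of the difference. Those changes depended on the setting: ribosomal protein scaling gave 856 upward, and a fit of only the groups compared gave 244 upward and 211 downward. Alternatives chosen after seeing the data set 360 min against 90 min, with 0 upward and 1 downward, or against 180 min, with 0 upward and 0 downward. The cause was not tested. With the replicate number as a block the counts were 2114 higher and 2136 lower, and 505 and 408 for the change; deviations of same-numbered libraries at 0 min correlated at 0.0129 to 0.0552, so the samples share only a number. No called difference of a named gene turned its sign under any alternative run. Differences that did not pass did turn: those of SNAI2, MDM2, GAPDH, MT-CO2 and KHSRP, above 0 in the fit reported, were below 0 under ribosomal protein scaling.

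The unknown size factors, 3 libraries a group and the added 1 limit what low genes can show. Transcript totals of 4426445 to 9856338 per library bear on this, and messages below the mean of 10 were not tested. Normalized counts are relative values, so the amount of RNA per cell is not measured. They do not add up to a fixed sum. LacZ libraries summed to 6638187 to 7057240 at 0 min and 7638907 to 7741042 at 360 min. RBMS3 libraries summed to 6859933 to 6908351 at 0 min and 7875078 to 8080428 at 360 min.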
